A study of Sus scrofa with 8 samples.

Results

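The genes described are 9 enzymes of glycolysis that exist as isozymes, that is, as products of different genes catalysing the same step. They are the hexokinases HK1, HK2 and HK3, the phosphofructokinases PFKL and PFKP, the pyruvate kinases PKLR and PKM, and the lactate dehydrogenases LDHA and LDHB. They were chosen by symbol, as liver isozymes set against those of other cells, and matched 10 of the 18103 rows of the expression table, because the symbol LDHB has a second row. Of these rows, 9 reached 0.3 FPKM in 4 or more of the 8 libraries, the filter on low values that 13175 genes passed in all.

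Hepatic polyadenylated RNA of male crossbred pigs (Landrace x Large White) was sequenced in 8 libraries, each made from a pool of 2 pigs. The 4 initial-state pools came from animals aged 4 months on the control diet, sampled by biopsy under laparotomy. The 4 steatosis pools came from the same animals aged 6 months, after 2 months on a diet low in methionine and choline and enriched in cholesterol, cholate, saturated fat and fructose, with the liver taken after euthanasia. Both samplings followed an overnight fast, and age and way of sampling cannot be told apart from the diet. Values are FPKM (mapped fragments, scaled to transcript length and library size), so levels of different genes can be set side by side per length, and each SD is the spread between 4 pools, not between animals.

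Glycolysis converts glucose to pyruvate, and its rate is set mainly at the steps of hexokinase, phosphofructokinase and pyruvate kinase. The hepatocyte uses the L forms PFKL and PKLR. HK1, HK2, HK3, PFKP and PKM are typical of other cells, and lactate dehydrogenase, a tetramer of A and B subunits, interconverts pyruvate and lactate at the end of the pathway.

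Facts of the whole series that touch these genes are few. Hepatocyte markers summed to 74285 to 106413 FPKM in initial pools and 66420 to 77436 FPKM in steatosis pools, so the labelled tissue was present in all 8 libraries. The library of initial pool 1 stood apart. Its 12 measured skeletal muscle markers summed to 3167 FPKM, against 1.69 to 23.8 FPKM in the other initial pools and 0.69 to 1.77 FPKM in steatosis. Its 9 stomach mucosa markers summed to 1526 FPKM, against 5.81 to 29.0 FPKM and 6.00 to 6.50 FPKM. All 12 muscle and all 9 stomach markers were highest in that pool, and 3 and 4 of them, respectively, were at 0 in every steatosis pool. Results are therefore given with and without it. Over all genes tested, log2 fold changes had a median of 0.25, and individual changes are to be read relative to that shift. Scaling the libraries by their median ratio, which removes the shift, moved the share of calls that were higher from 92.1% to 54.4%.

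A change was called when the adjusted p of limma (Benjamini-Hochberg over all tested genes) was under 0.05. By this rule 5 of the 9 isozymes rose (HK1, HK2, HK3, PFKP and PKLR, or 4 of 8 without HK2), 1 fell (LDHB) and 3 (PFKL, PKM and LDHA) did not pass the test. Among all tested genes 26.7% rose and 2.28% fell. All 4 steatosis pools exceeded all 4 initial pools for 3 of the 8 isozymes other than HK2, against 29.6% of all tested genes, and lay below them for 1, against 2.53%. The study's own stricter limits (0.01 for the adjusted p and 1 for the absolute log2 fold change) were met by the 3 hexokinases, or by 2 of the 8 isozymes left without HK2, against 6.01% of all genes in the higher direction and 0.334% in the lower. Counts are also given without HK2 because it passed the filter only through its steatosis pools, so that its difference was fixed in advance. The median log2 fold change of the isozymes was 0.63, and 0.52 over the 8 without HK2. Without initial pool 1, 5 isozymes again rose, with PKM called and PKLR not, against 23.5% of all genes, and LDHB fell, against 2.13%. With median ratio scaling 3 rose (the hexokinases), against 11.6% of all genes, and LDHB fell, against 9.74%. With upper quartile scaling the counts were also 3, against 12.7%, and 1, against 7.73%. With the pool number as a block, 5 rose, against 25.7%, and 1 fell, against 2.6%. These counts under other settings include HK2 among those that rose.

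**Figure D1:**
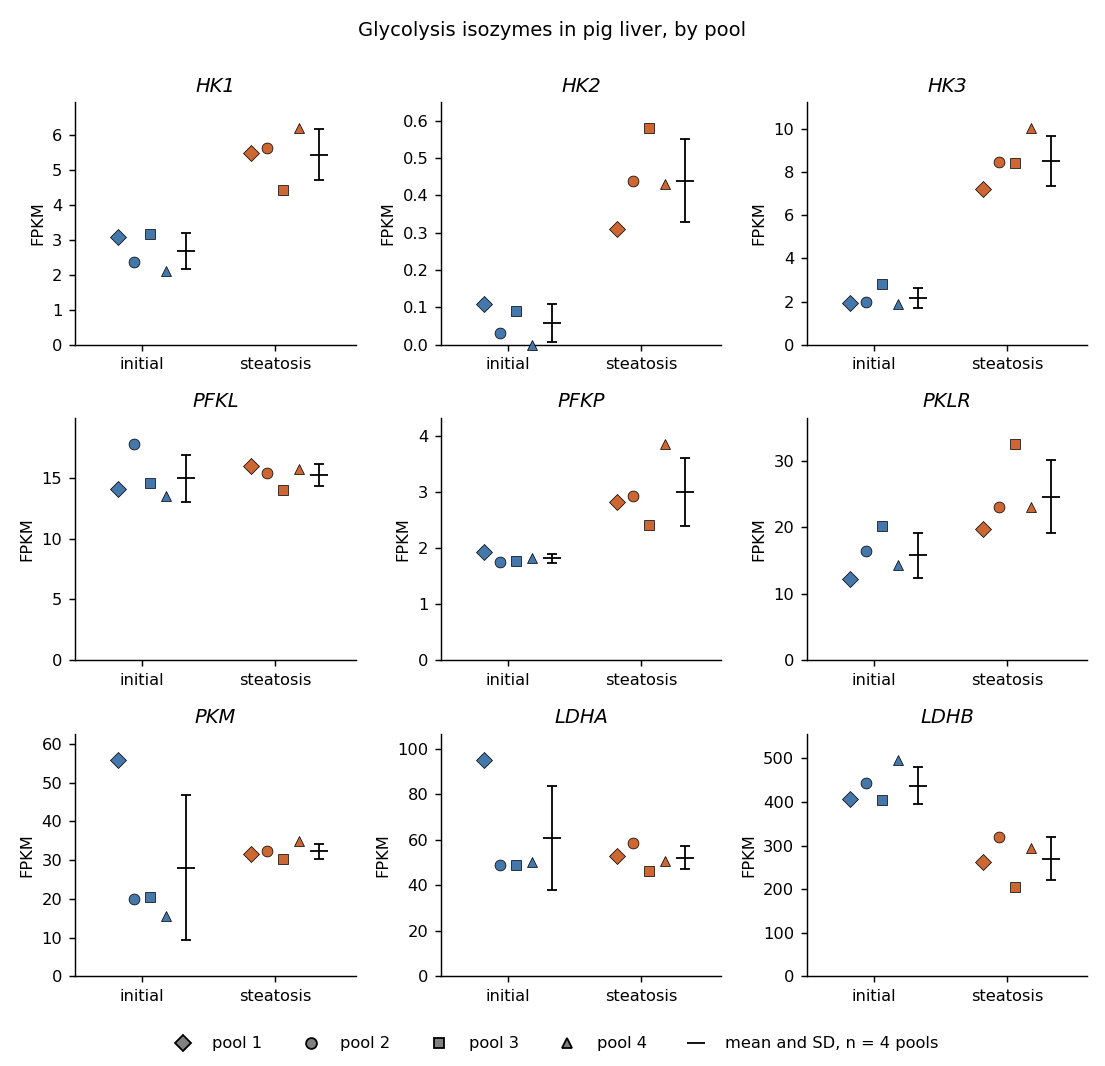
FPKM of each isozyme in the 4 initial and 4 steatosis pools, with 1 panel per gene and a y axis starting at 0; symbols give the pool number and bars the mean and SD of 4 pools. All 4 steatosis pools lie above all initial pools for HK1, HK2, HK3 and PFKP and below them for LDHB, and initial pool 1 stands high for PKM (55.84) and LDHA (95.07).

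In order of level, LDHB led in the initial state and HK2 came last. LDHB averaged 438 ± 43.3 FPKM (SD, n = 4 pools), above 99.0% of all listed genes, LDHA 60.7 ± 22.9, PKM 28.0 ± 18.7, PKLR 15.8 ± 3.41 and PFKL 14.9 ± 1.92 FPKM. HK1 followed at 2.69 ± 0.52, HK3 at 2.16 ± 0.45, PFKP at 1.82 ± 0.079 and HK2 at 0.058 ± 0.051 FPKM. The pool ranges of these neighbours overlapped from LDHA to PFKL and from HK1 to PFKP, so the ranges do not resolve the order of neighbours there. Within those runs, all initial pools of LDHA lay above those of PKLR and PFKL, and all of HK1 above those of PFKP. LDHA was also above PKM within every initial pool. In steatosis HK3 moved above HK1, and only PKM and PKLR, at 30.31 to 34.84 and 19.74 to 32.50 FPKM, were neighbours whose ranges still overlapped. Of the pairs with a liver form, PFKL lay above PFKP in all 8 pools, while PKLR lay below PKM in 7 of them, although their ranges overlapped. LDHB lay above LDHA in all 8 pools.

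The hexokinases gave the largest rises. HK3, an isozyme best known from white blood cells, lies on chromosome 2 (81042401 to 81060832, assembly Sscrofa11.1, gene 100522855). It measured 1.93, 1.99, 2.83 and 1.88 FPKM in initial pools 1 to 4 and 7.20, 8.48, 8.40 and 10.03 FPKM in steatosis pools 1 to 4. The lowest steatosis pool was above the highest initial pool. The log2 fold change was 1.94 (SE 0.16, adjusted p = 5.6e-05), a ratio of means of 3.95, and it ranged from 1.86 to 2.08 over the fits that each lack 1 library. With median ratio scaling it was 1.68 (adjusted p = 0.000208). In RNA from a whole piece of liver, more or fewer cells of a type and more or less RNA per cell cannot be told apart.

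HK1, the hexokinase bound to mitochondria in many tissues (chromosome 14, 72383328 to 72460927, gene 100152344), measured 3.08, 2.37, 3.18 and 2.12 FPKM at the start. The steatosis pools held 5.50, 5.64, 4.44 and 6.20 FPKM. The groups did not overlap, and the ratio of means was 2.03. On the log2 scale HK1 rose by 1.002 (SE 0.16, adjusted p = 0.00203). This sat at the study's limit of 1, and with median ratio scaling it was 0.74 (adjusted p = 0.00808), still called but no longer beyond that limit.

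HK2, the insulin-regulated hexokinase of muscle and fat (chromosome 3, 68155656 to 68231187, gene 494561), was the scarcest of the isozymes. Initial pools 1 to 4 gave 0.11, 0.03, 0.09 and 0 FPKM, all under the filter of 0.3 FPKM, and steatosis pools 0.31, 0.44, 0.58 and 0.43 FPKM, all above it. The groups did not overlap, but a gene that passes the filter through the group where it is high has to differ between groups. Its log2 fold change of 1.82 (SE 0.31, adjusted p = 0.00262) depended on the pseudocount, since it was 0.44 with 1 and 3.23 with 0.01 in place of 0.1.

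HKDC1, a further hexokinase of low activity, measured 0.02 to 0.10 FPKM in initial and 0.12 to 0.72 FPKM in steatosis pools, and was not tested because it reached 0.3 FPKM in only 3 libraries. With HK1, HK2 and HK3 it summed to 4.09 to 6.12 FPKM in initial pools and 13.54 to 17.38 FPKM in steatosis pools. HK3 made up 43.5% ± 4.39 of that sum (SD, n = 4 pools) before the diet and 57.2% ± 3.88 after it. The share of HK1 was 54.0% ± 3.38 and then 36.6% ± 3.13. The pool ranges of both shares did not overlap between groups.

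**Figure D2:**
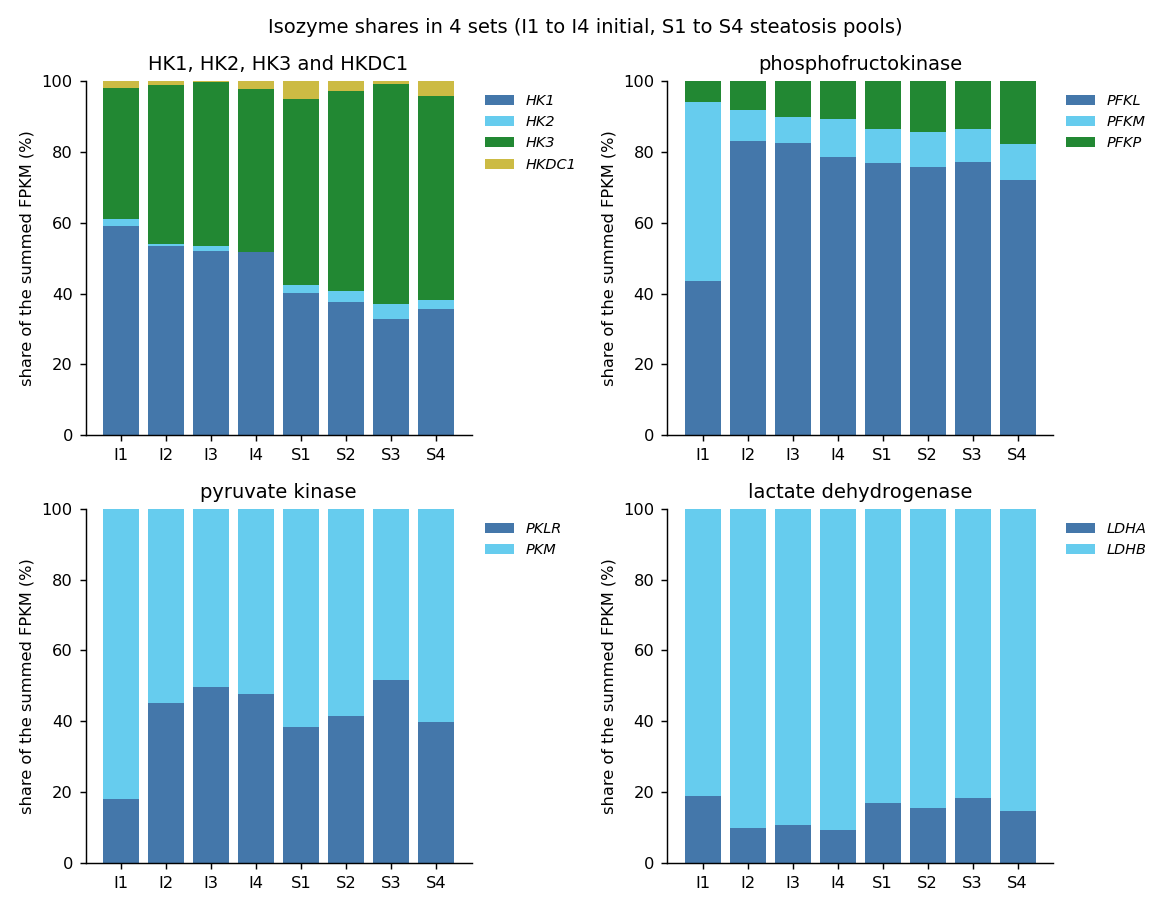
Share of each isozyme (y axis, percent) in the summed FPKM of HK1, HK2, HK3 and HKDC1, and of phosphofructokinase, pyruvate kinase and lactate dehydrogenase, with 1 bar per pool (I1 to I4 initial, S1 to S4 steatosis). HK3 takes 36.97% to 46.24% in initial pools and 52.59% to 62.04% in steatosis pools, and PFKM takes 50.6% of phosphofructokinase in initial pool 1 alone.

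Because a ratio of transcripts within a library does not depend on the scaling between libraries, isozymes of a step were also compared as log2 ratios, by two-sided exact permutation tests of 4 against 4 pools. The smallest p these allow is 0.0286, and p was adjusted over the 5 ratios. With the pools paired by number, an exact permutation of 4 pairs cannot go below 0.125, so no ratio can pass the threshold in that form. The log2 ratio of HK3 to HK1 was -0.65, -0.24, -0.16 and -0.17 in initial pools and 0.38, 0.58, 0.91 and 0.69 in steatosis pools. HK3 was thus below HK1 in every initial pool and above it in every steatosis pool, a mean difference of 0.94 (exact permutation p = 0.0286, adjusted p = 0.0477, and p = 0.125 when paired). The ratio of HK2 to HK1 differed by 0.81 in the same direction (exact permutation p = 0.0286, adjusted p = 0.0477, and p = 0.125 when paired). HK2 passed the filter only through its steatosis pools, so this p cannot count as support for a shift. The adjusted p of the other ratios counts HK2 to HK1 among the 5 and was not recomputed without it. With a pseudocount of 1 the ratio of HK2 to HK1 differed by -0.37, so its direction rests on the pseudocount. Without any single initial pool or without steatosis pool 3 its exact permutation p was 0.0571.

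Marker genes of other cells were measured beside these hexokinases. Of 15 macrophage markers tested, 11 rose and 0 fell by limma (12 and 1 at an unadjusted p under 0.05, and 9 and 2 by the adjusted p with median ratio scaling), and their sum was 1188 to 1558 FPKM in initial and 1834 to 2044 FPKM in steatosis pools. Of 9 neutrophil markers in the table, 6 were tested and 2 rose, with sums of 6.23 to 13.1 and 16.4 to 21.1 FPKM. T and NK cell markers rose for 3 of 12 tested rows, endothelial markers for 2 of 10, stellate cell markers for 3 of 10 with 1 that fell, and cholangiocyte markers for 3 of 8. Set against the 26.7% of all tested genes that rose, the counts for T and NK cells, endothelium and stellate cells were near or below that background. None of these markers was at 0 in all steatosis pools. Of 17 hepatocyte marker rows, 2 rose and 3 fell, and with median ratio scaling 0 rose and 6 fell (0 and 8 at an unadjusted p under 0.05). Without that scaling, both rows that rose had the symbol TF. Those that fell were FGA, FGB and FGG, which lie together on chromosome 8. Of all tested genes 2.28% fell, and with median ratio scaling 11.6% rose and 9.74% fell. The part of these cell types in the isozyme results was not tested.

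At the phosphofructokinase step, which commits the hexose to glycolysis, the liver form did not change detectably and the platelet form was higher. PFKL (chromosome 13, 207167287 to 207191688, gene 100621757) measured 14.02, 17.74, 14.52 and 13.46 FPKM in initial pools and 15.95, 15.36, 13.94 and 15.67 FPKM in steatosis pools. The groups overlapped, and the log2 fold change was 0.03 with a 95% interval of -0.21 to 0.28 (limma, adjusted p = 0.83). Its sign changed to -0.24 with median ratio scaling (adjusted p = 0.0743), so neither direction was established.

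PFKP (chromosome 10, 67022652 to 67082336, gene 100521394) held 1.93, 1.75, 1.78 and 1.83 FPKM at first, the closest agreement of any of the isozymes, and 2.83, 2.94, 2.42 and 3.86 FPKM in steatosis. All steatosis pools exceeded all initial pools, and PFKP rose by 0.68 on the log2 scale (SE 0.15, adjusted p = 0.00963). The call held when any single library was left out (0.55 to 0.77), but was lost with upper quartile scaling (0.45, adjusted p = 0.0542) and median ratio scaling (0.41, adjusted p = 0.0773). Within pools, the log2 ratio of PFKP to PFKL averaged -2.96 ± 0.22 and then -2.32 ± 0.22 (SD, n = 4 pools). It was higher in all 4 pools of the same number, by 0.64 in the mean (exact permutation p = 0.0286, adjusted p = 0.0477, and p = 0.125 when paired). PFKP went from 8.74% ± 2.13 to 14.8% ± 2.01 of phosphofructokinase FPKM, a sum that includes PFKM. In initial pool 1, where PFKM took 50.6%, PFKP took 5.98%. Its share was 8.19% to 10.68% in initial pools 2 to 4 and 13.41% to 17.76% in steatosis. An lncRNA, LOC110255730, overlaps PFKP, and whether fragments were counted by strand is not given in the sources used here.

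PFKM, the muscle form, marked the library that stood apart. It measured 16.34 FPKM in initial pool 1, against 1.32 to 1.89 FPKM in the other initial pools and 1.69 to 2.2 FPKM in steatosis. It did not pass the test, with log2 fold changes of -0.58 over all 8 pools (adjusted p = 0.522) and 0.22 without initial pool 1 (adjusted p = 0.365).

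Pyruvate kinase makes pyruvate and ATP, and its L form, PKLR, is inhibited by phosphorylation in the fasted liver. PKLR (chromosome 4, 94536978 to 94546561, gene 100738344) measured 12.30, 16.40, 20.27 and 14.28 FPKM in initial pools and 19.74, 23.06, 32.50 and 23.09 FPKM in steatosis pools. The groups overlapped, since initial pool 3 exceeded steatosis pool 1, yet each steatosis pool exceeded the initial pool of its own number. PKLR rose by 0.63 on the log2 scale (SE 0.18, adjusted p = 0.0287), and a fit that paired the pools by number gave an adjusted p of 0.00363. The call was lost with upper quartile scaling (0.40, adjusted p = 0.149), with median ratio scaling (0.36, adjusted p = 0.187) and without any of initial pools 1 and 4 or steatosis pools 2, 3 and 4 (0.49 to 0.66, adjusted p = 0.0561 to 0.0673). PKLR overlaps HCN3, which measured 0.19 to 0.80 FPKM.

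PKM encodes the M forms of pyruvate kinase, of which PKM1 prevails in muscle and brain and PKM2 in many proliferating and immune cells. The values are per gene and cannot separate them. Its row (chromosome 7, 60971807 to 61032780, gene 100158154) pooled 28 transcripts, 6 of them new, and the description of the row also names the neighbouring PARP6. PARP6 has no row of its own, and whether its fragments were counted under PKM cannot be settled here. That limit applies to every level, share and ratio of PKM given above and below. Initial pools measured 55.84, 20.02, 20.52 and 15.60 FPKM and steatosis pools 31.60, 32.39, 30.31 and 34.84 FPKM. Initial pool 1 was above every other pool, and the remaining initial pools were below every steatosis pool. With all 8 pools the log2 fold change was 0.40, with a 95% interval of -0.33 to 1.13 (limma, adjusted p = 0.384). Without initial pool 1 PKM rose by 0.79 (SE 0.12, adjusted p = 0.00186), and also with median ratio scaling on those 7 libraries (0.52, adjusted p = 0.00499). The result for PKM was thus decided by 1 library.

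PKM took 82.0% of pyruvate kinase FPKM in initial pool 1, 50.3% to 55.0% in the other initial pools and 48.3% to 61.5% in steatosis. The log2 ratio of PKM to PKLR differed by -0.24 between groups (exact permutation p = 0.886, adjusted p = 0.886) and by 0.27 without initial pool 1, with overlap in both cases. No shift between the L and the M form was detectable at this number of pools.

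**Figure D3:**
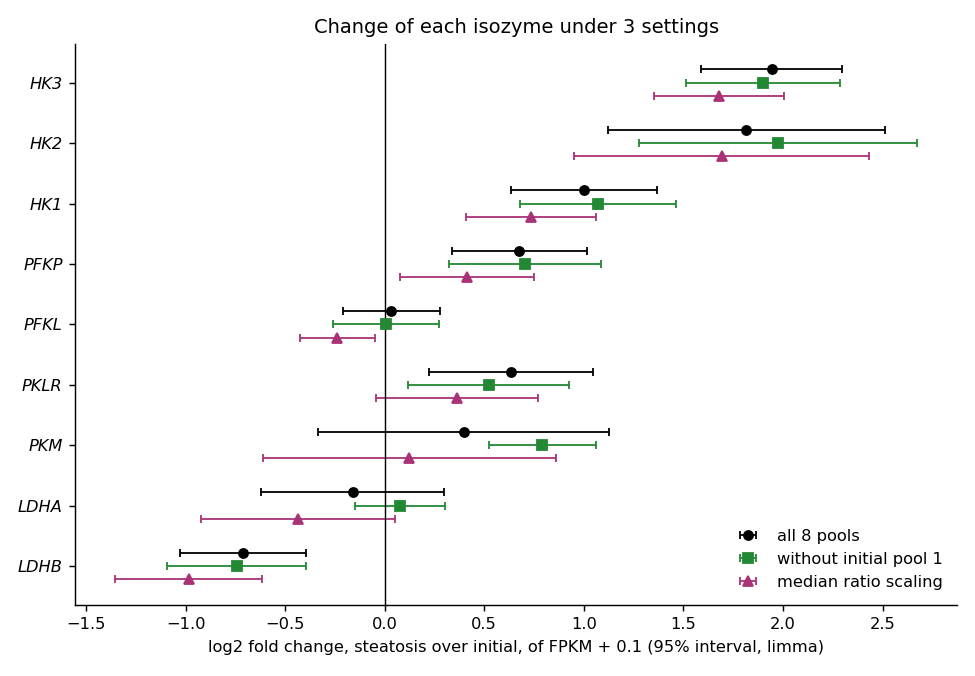
Log2 fold change of each isozyme, steatosis over initial, on FPKM + 0.1 (x axis), with 95% intervals from limma, for all 8 pools (circles), without initial pool 1 (squares) and with median ratio scaling (triangles). HK3, HK2 and HK1 lie right of 0 and LDHB left of 0 in all 3 settings, whereas PKM moves from 0.40 to 0.79 without initial pool 1 and PFKL changes sign with the scaling.

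Lactate dehydrogenase showed the only fall among the isozymes. LDHB, the B subunit typical of heart (chromosome 5, 51810932 to 51831218, gene 102161427), measured 406.87, 443.77, 403.81 and 496.69 FPKM in initial pools. In steatosis pools it measured 261.31, 319.53, 204.97 and 295.16 FPKM. Every steatosis pool was below every initial pool, and LDHB fell by 0.71 on the log2 scale (SE 0.14, adjusted p = 0.00551), to 0.617 of its initial mean. The fall was called with each library left out in turn (-0.80 to -0.58), and with median ratio scaling the log2 fold change was -0.98 (adjusted p = 0.0039). The second row under the symbol LDHB (gene 100621540, chromosome 2, 12988754 to 12990033) overlaps an annotated pseudogene. It was listed at 0 in 7 libraries and at 0.15 FPKM in steatosis pool 4. It was not tested.

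LDHA, the A subunit typical of skeletal muscle (chromosome 2, 40814163 to 40827284, gene 407245), measured 95.07, 48.77, 48.80 and 50.33 FPKM in initial pools and 52.97, 58.69, 46.17 and 50.77 FPKM in steatosis pools. Outside initial pool 1 all values lay between 46.17 and 58.69 FPKM and the groups overlapped. The log2 fold change was -0.16, with a 95% interval of -0.62 to 0.30 (limma, adjusted p = 0.582), and 0.08 with an interval of -0.15 to 0.30 without initial pool 1 (adjusted p = 0.602).

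The log2 ratio of LDHB to LDHA was 2.10, 3.18, 3.05 and 3.30 in initial pools and 2.30, 2.44, 2.15 and 2.54 in steatosis pools. With all pools the difference of -0.55 did not pass the test (exact permutation p = 0.143, adjusted p = 0.179). Without initial pool 1 the groups did not overlap and the difference was -0.82 (exact permutation p = 0.0286, the smallest possible and not adjusted). LDHB still made up 83.6% ± 1.62 of lactate dehydrogenase FPKM in steatosis, after 87.8% ± 4.54 in the initial state.

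**Figure D4:**
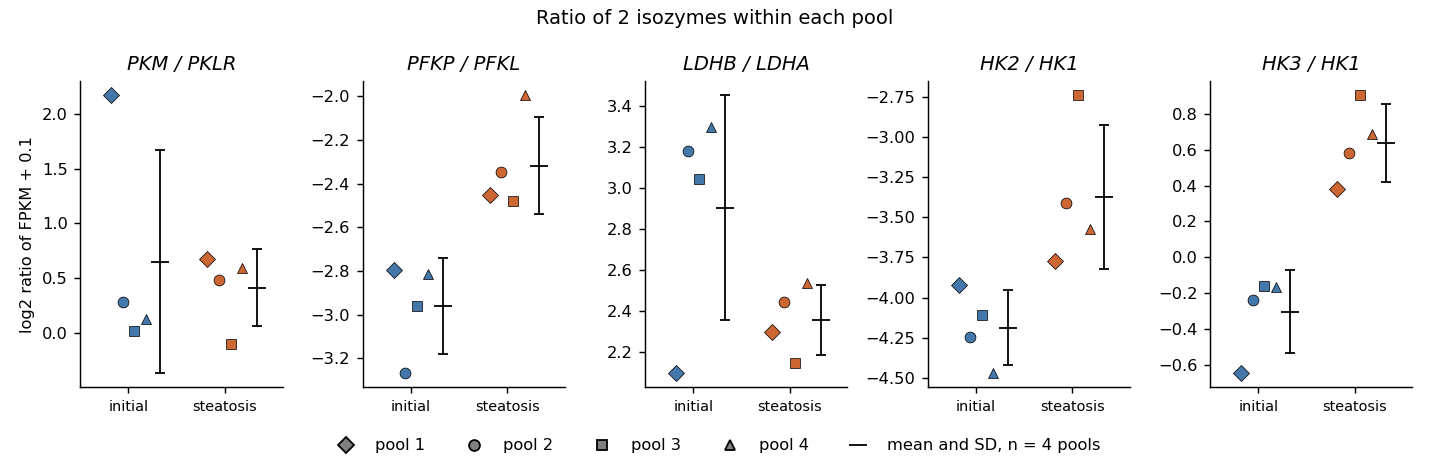
Log2 ratio of FPKM + 0.1 of 2 isozymes within each pool (y axis, a separate scale per panel), for the 4 initial and 4 steatosis pools, with the mean and SD of 4 pools. PFKP to PFKL and HK3 to HK1 separate the groups fully, and initial pool 1 lies apart for PKM to PKLR (2.17) and for LDHB to LDHA (2.10).

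Initial pool 1 bore on some isozymes and hardly on others. Relative to the mean of the other initial pools, it held 2.98 times as much PKM and 1.93 times as much LDHA. For HK1, HK3, PFKL, PFKP and LDHB the ratio lay between 0.864 and 1.21, and for PKLR it was 0.724. HK2 was highest there too, at 0.11 FPKM, but far below the filter. Among the other enzymes, the muscle forms stood highest, with ENO3 at 227.34 FPKM against 1.13 to 2.37 in the other initial pools and PGAM2 at 58.40 against 0.07 to 0.72 FPKM. ALDOA reached 574.93 FPKM, against 89.47 to 106.40 FPKM in the other initial pools. The calls of HK1, HK2, HK3, PFKP and LDHB were kept without that library, with log2 fold changes of 1.07, 1.97, 1.90, 0.70 and -0.74.

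**Figure D5:**
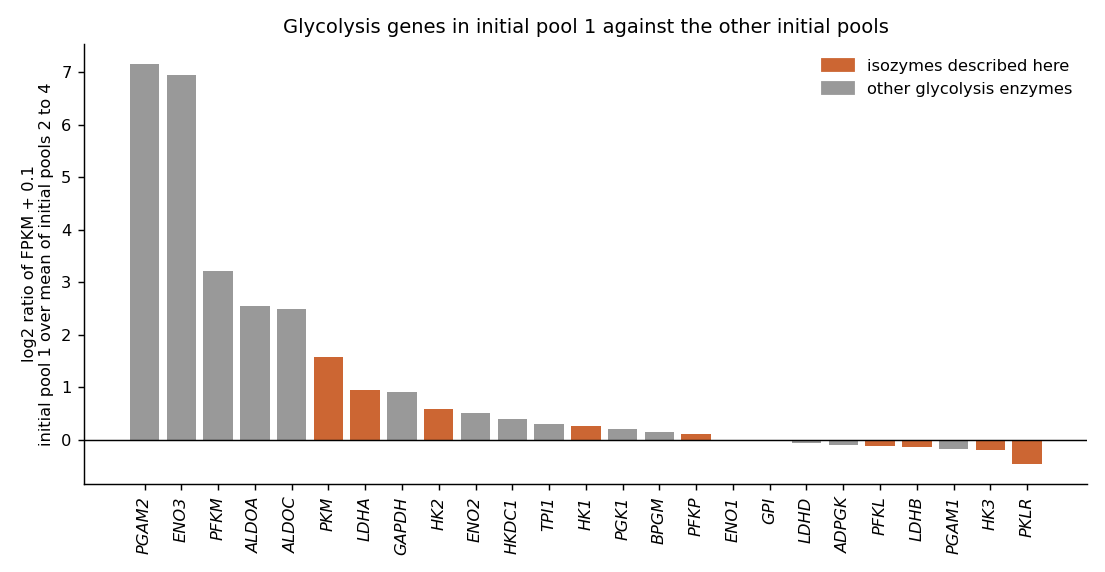
Log2 ratio of FPKM + 0.1 in initial pool 1 over the mean of initial pools 2 to 4 (y axis) for the isozymes described and the other glycolysis enzymes, with 1 bar per gene in falling order. PGAM2, ENO3, PFKM and ALDOA stand highest, and among the isozymes in orange PKM (1.57) and LDHA (0.95) do, while the other isozymes lie between -0.46 and 0.58.

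The other enzymes of the pathway moved less. Of 18 further glycolysis genes in the table, 15 were tested, 2 rose, LDHD among them, and 0 fell, against 26.7% and 2.28% of all tested genes. Their median log2 fold change was 0.10, below that of all genes. At an unadjusted p under 0.05 from limma 4 were higher and still 0 lower, and with median ratio scaling 2 were higher and 3 lower at that level. ENO1, the common enolase, had a log2 fold change of 0.10 (adjusted p = 0.5). LDHD, the mitochondrial D-lactate dehydrogenase, measured 9.15 to 13.13 FPKM in initial and 18.12 to 19.57 FPKM in steatosis pools. It rose by 0.81 (SE 0.12, adjusted p = 0.00098), so the D- and the L-lactate enzymes LDHD and LDHB changed in opposite directions. Without initial pool 1 ALDOA rose as well, by 0.67 (adjusted p = 0.0011), and 3 of 15 then rose, against 23.5% of all genes.

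Among 19 genes that control glycolytic flux, all tested, 4 rose and 0 fell by limma (4 and 0 at an unadjusted p under 0.05). Of all tested genes 26.7% rose and 2.28% fell, so the rises in this list were not above that background. With median ratio scaling 2 of the list rose and 3 fell, against 11.6% and 9.74% of all genes. The balance of directions in this list thus rests on the scaling. PFKFB4, a bifunctional enzyme that sets the level of fructose 2,6-bisphosphate, the activator of phosphofructokinase, measured 0.52 to 0.85 FPKM in initial and 1.27 to 1.64 FPKM in steatosis pools and rose by 1.05 (SE 0.19, adjusted p = 0.00333). PFKFB1, its liver counterpart, rose by 0.43 (adjusted p = 0.0385), a call lost with median ratio scaling (0.16, adjusted p = 0.39). The pyruvate dehydrogenase kinases, which restrain the entry of pyruvate into the citric acid cycle, included the other rises. PDK2 measured 25.87 to 31.83 FPKM in initial pools and 42.50 to 49.74 FPKM in steatosis pools, and rose by 0.70 (SE 0.095, adjusted p = 0.000801). PDK4, induced by fasting, rose by 0.59 (adjusted p = 0.034), and this call was lost without initial pool 1 (0.47, adjusted p = 0.0709) and with median ratio scaling (0.31, adjusted p = 0.243). MLXIPL, the carbohydrate-responsive factor that drives PKLR in hepatocytes, had a log2 fold change of 0.25 (adjusted p = 0.388). HIF1A, the hypoxia-inducible factor that drives LDHA and several hexokinases, had one of 0.26 (adjusted p = 0.125).

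Of 11 sugar and lactate transport genes 10 were tested, and 4 rose and 0 fell by limma (6 and 0 at an unadjusted p under 0.05). The shares of all tested genes were 26.7% and 2.28%. With the pool number as a block 2 of the list rose, against 25.7% of all genes, and with median ratio scaling 1 rose, against 11.6%. SLC16A3, a lactate exporter of glycolytic cells, measured 0.70, 0.32, 0.32 and 0.18 FPKM and then 1.17, 0.91, 0.89 and 0.85 FPKM. It rose without overlap by 1.23 (SE 0.30, adjusted p = 0.0138) and kept its call with median ratio scaling (1.01, adjusted p = 0.0374). SLC2A3, a glucose transporter of high affinity, rose by 0.79 (adjusted p = 0.0249) and SLC16A7, a lactate and pyruvate transporter, by 1.04 (adjusted p = 0.0369). SLC2A2, the bulk glucose transporter of the hepatocyte, measured 253.22, 120.25, 37.14 and 32.47 FPKM in initial pools and 38.52 to 47.95 FPKM in steatosis pools. Its initial pools spread over a wide range in which pools 1 and 2 stood above all steatosis pools and pools 3 and 4 below them, and it did not pass the test (log2 fold change -0.88, adjusted p = 0.258).

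The isozymes also differed in how alike the pools were. The coefficient of variation of PFKP was 4.33% among initial pools, against a median of 17.7% over all tested genes, and 20.2% in steatosis, against a median of 11.3%. PKM varied by 66.8% among initial pools, by 14.5% without initial pool 1 and by 5.91% in steatosis. LDHA varied by 37.7%, by 1.81% without initial pool 1 and by 9.97% in steatosis. Without that pool, PKM and LDHA thus varied by less than the median tested gene.

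Over the 8 libraries, the 3 genes whose profile was most like that of HK3, among 6346 with a symbol and a mean of at least 5 FPKM, were SIL1, NAPRT and FGD2 (Pearson r of log2 values 0.998, 0.997 and 0.992). Those most like LDHB were C5H12orf45, OSBPL9 and IDH1 (0.976, 0.955 and 0.943). All 8 points are shared between genes and fall into the groups of the design, so these values describe profiles and were not tested.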

How the data were processed

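The authors filtered paired-end reads, mapped them to Sus scrofa 11.1 (HISAT2 2.0.4), built transcripts (StringTie), merged new coding ones into the reference and quantified genes with Bowtie2 2.2.5 and RSEM 1.2.12. FPKM was the unit the authors deposited for the 8 libraries, with no scaling between libraries given in the sources used here. The authors also deposited 4 pairwise comparisons of an initial with a steatosis pool. Their FPKM columns equal those of the main table apart from a floor of 0.01, and their log2 fold changes, p-values and FDR were not used.

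The 13175 genes that reached 0.3 FPKM in 4 or more of 8 libraries entered a limma fit (version 3.58.1, R 4.3.3) of log2(FPKM + 0.1) on group alone. Variances were moderated with a trend on mean expression, and p was adjusted by Benjamini-Hochberg. On simulated data with 4 libraries per group, 200 genes were given an absolute log2 fold change of 1. The fit recovered 130 of them (65%) and made 4 false calls, so a change of that size can be missed. A fold change of log2(FPKM + 0.1) understates the change of low genes. The study gives clean reads as a mean and SD per group, and these were close between the groups. Read numbers of single libraries and genes cannot be taken from FPKM. Precision is therefore given as SD between pools, with 15934 to 16588 genes above 0 per library. Each pool holds equal amounts of RNA of 2 pigs, so p-values measure the spread between pools. Ratios of isozymes and shares came from pandas 2.3.3 and numpy 2.4.6 under Python 3.11.15, and matplotlib 3.10.9 drew the plots. All 10 rows of the isozymes matched RefSeq Sscrofa11.1 by gene ID, the source of the coordinates.

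The isozymes and all gene lists were chosen with earlier results of these data known. Named were the 9 isozymes, the other isozymes of their steps, genes of the lists of other enzymes, control and transport, first those with the largest changes, and the 3 genes most like the isozyme with the highest change by FPKM profile and like that with the lowest, where HK3 and LDHB had the extreme values. A few genes of the lists are not reported here by name.

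Pools of the same number were taken as pairs, because the same animals were sampled at both times. The labels do not state that a pool number stands for the same pigs. Deviations from the group means over 13175 genes correlated at 0.163, 0.350, 0.317 and 0.247 for pools 1 to 4. Pools of different numbers were not compared in this way, so these values cannot show the pairing. A fit blocked by pool was among the alternatives, as were 3 other scalings (common sum, upper quartile, median ratio), no filter and a filter at 1 FPKM, pseudocounts of 1 and 0.01, an adjusted p under 0.01, each library left out in turn and pool 1 of both groups left out. Median ratio scaling without initial pool 1 was added after seeing the data.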

Additional observations from a re-analysis of the deposited data

Results flagged for a closer look

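In 68 groups of 4 pools (isozymes, related enzymes and ratios), the gap between the highest or lowest pool and its nearest neighbour, divided by the range, was compared with Dixon's 95% limit, which chance passes in about 1 group in 20. It was passed in 12 groups, 11 of them by initial pool 1.

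Initial pool 1 was apart for PKM (55.84 FPKM) and LDHA (95.07 FPKM) among the isozymes. It was also apart for PFKM (16.34 FPKM), ALDOA (574.93 FPKM), ALDOC (4.50 FPKM), GAPDH (1311.54 FPKM), ENO3 (227.34 FPKM), PGAM2 (58.40 FPKM) and SLC2A3 (2.89 FPKM), always as the highest initial pool. Of the ratios, it was the highest for PKM to PKLR (2.17 on the log2 scale) and the lowest for HK3 to HK1 (-0.65). The muscle and stomach markers of that pool are given above, and their part in these values was not tested.

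HK3 in initial pool 3 was 2.83 FPKM, against 1.88 to 1.99 FPKM in the other initial pools, and still far below the lowest steatosis pool.

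The second row of symbol LDHB, which no comparison used, was at 0.15 FPKM in steatosis pool 4 and at 0 in all other libraries, the 4 initial ones included.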

How the results depend on the processing

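Of 306 values recomputed under alternatives, 266 kept their direction and their side of the threshold or, for counts, stayed within 1.5 times. PFKL, never called, turned negative with upper quartile scaling (-0.20), median ratio scaling (-0.24), without pool 1 of both groups (-0.016) and with median ratio scaling without initial pool 1 (-0.26), and ranged from -0.012 to 0.12 with single libraries left out. PFKP lost its call under the scalings (0.45, 0.41 and 0.44 in the order upper quartile, median ratio, median ratio without initial pool 1). PKLR lost it there too (0.40, 0.36 and 0.25), with an adjusted p under 0.01 as the threshold (0.63), and in 5 of the 8 fits that left out a library (range over all 8, 0.49 to 0.76). PKM gained a call without initial pool 1 (single libraries left out, 0.18 to 0.79), without pool 1 of both groups (0.80) and with median ratio scaling without initial pool 1 (0.52). LDHA, never called, ranged from -0.25 to 0.076, and was 0.066 without pool 1 of both groups. The log2 ratio of PKM to PKLR ranged from -0.45 to 0.27, and was 0.18 without pool 1 of both groups. The ratio of LDHB to LDHA ranged from -0.82 to -0.42, and passed only without initial pool 1. The ratio of HK2 to HK1 was -0.37 with a pseudocount of 1, and ranged from 0.60 to 0.95 with 5 of 8 fits past the threshold no more. Without pool 1 of both groups, where the smallest p is 0.1, the differences were 0.74 for PFKP to PFKL, 1.04 for HK2 to HK1 and 0.91 for HK3 to HK1. Paired by number (smallest p 0.125), they were 0.64, 0.815 and 0.94, as unpaired. Of the isozymes 3 rose with upper quartile and with median ratio scaling, and of the other glycolysis enzymes 1 fell (ALDOC) with median ratio scaling without initial pool 1. The causes of these differences were not tested. With the pool number as a replicate block, 5 isozymes rose and 1 fell, as without it, and the log2 fold changes were the same (PKLR 0.63, adjusted p = 0.00363). The depth of single libraries is not known from FPKM, and in initial pools HK2 and HKDC1 lay near the lowest values the libraries show. In steatosis pools they measured 0.31 to 0.58 and 0.12 to 0.72 FPKM.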

Other observations

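Genes that respond to low oxygen outside glycolysis were measured as a neighbouring list. All 10 were tested, 4 rose and 0 fell by limma (5 and 0 at an unadjusted p under 0.05), against 26.7% and 2.28% of all tested genes. Their median log2 fold change was 0.29, near the 0.25 of all genes. With median ratio scaling 1 rose and 1 fell, against 11.6% and 9.74% of all genes. Red blood cell markers, of which 3 of 7 were tested, did not pass in either direction (0 higher and 1 lower at an unadjusted p under 0.05), with sums of 263 to 1295 FPKM in initial and 137 to 428 FPKM in steatosis pools. FPKM was also summed over the isozymes of a step. Lactate dehydrogenase summed to 453 to 547 FPKM in initial and 251 to 378 FPKM in steatosis pools, while pyruvate kinase summed to 29.9 to 68.1 and 51.3 to 62.8 FPKM.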
